A study of Danio rerio with 9 samples.

Results

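Eyes of wild type zebrafish larvae at 4 days post fertilisation (dpf) were compared with eyes at 5 dpf, to ask which genes differ between these consecutive days. The groups are those of the sample titles. There are 3 arrays of eyes at 4 dpf and 3 at 5 dpf, 6 of the 9 arrays in the series, and the other 3 are eyes at 3 dpf. All 9 come from whole eyes of wild type larvae, and no treatment or transgene is named for any group. The study's methods describe total RNA from dissected eyes with 3 biological replicates per time point for 3 and 5 dpf. The arrays at 4 dpf carry only a replicate number, and the sources used here do not say how many larvae each array stands for. The p-values therefore measure the spread between these arrays, which may be technical at 4 dpf.

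The zebrafish retina is already layered and light-responsive at these ages. Cones, which carry the red, green, blue and ultraviolet opsins, mature ahead of most rods, and new retinal cells go on being added by dividing progenitors in the ciliary marginal zone at the rim of the eye. Over the same days the larva starts to feed, the exocrine pancreas makes digestive enzymes and the liver takes up its metabolic work. Muscles that move the eye and jaw, cartilage and skin lie against the eyeball.

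The Affymetrix Zebrafish Genome Array holds several short probes for each transcript, which are combined into 1 log2 signal per probe set. A difference of 1 on this scale is a fold change of 2. Differences are given as 4 dpf minus 5 dpf, so that a positive value means a higher signal at 4 dpf. Of 15617 probe sets, 115 controls were left out and 15502 were tested with limma. A probe set was called at a Benjamini-Hochberg adjusted p under 0.05 together with a fold of at least 2, and 10795 of those tested carry exactly 1 gene symbol, for 8793 genes.

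Array medians lay between 5.7 and 5.79, and the share of probe sets at 5 or above was 55.6% to 56.0% per array. The arrays correlated at 0.993 to 0.995 within 4 dpf, 0.983 to 0.989 within 5 dpf, and 0.983 to 0.991 across these ages. The arrays at 4 dpf stood apart from the others among dim probe sets, those with a mean under 5. Their lowest signals were 0.95 to 1.00 against 1.13 to 1.16 at 5 dpf, and each pair of them shared between 48 and 114 exactly identical deposited values, where every other pair of arrays in the series shared 0. Among the 3528 probe sets with a mean signal under 3, the median standard deviation (SD) was 0.02 at 4 dpf and 0.04 at 5 dpf, the median difference was -0.07, and the groups did not overlap in 51.8%. Among the 3401 with a mean from 7 to 9, the median SDs were 0.17 and 0.29, the median difference was 0.04 and 19.9% did not overlap. Whether the 4 dpf arrays were summarised together with the rest is not given, and any difference in their handling cannot be told apart from age. The difference between the 3′ and 5′ control probe sets for GAPDH, which tracks RNA integrity and labelling, was 2.4 to 2.71 at 4 dpf and 2.73 to 2.84 at 5 dpf, and its part in the results was not tested.

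Retinal markers bore out the tissue label at both ages. The ultraviolet opsin opn1sw1 had a signal of 15.09 ± 0.09 at 4 dpf, against 14.80 ± 0.03 at 5 dpf (SD, n = 3), and the cone transducin gnat2 was at 13.61 ± 0.18 and 13.33 ± 0.21 (SD, n = 3). Rod transducin gnat1 was at 12.49 and 12.11, the pigment epithelium enzyme rpe65a at 14.18 and 14.19, and the Muller glia gene glula at 13.02 and 13.25. Genes of trunk position were dim, with the means of hoxb9a, hoxc8a and hoxa9b all under 4. Of the blood markers, the globin hbae3 was at 12.92 and 12.52, alas2 at 3.46 and 4.44 and hbbe3 at 1.55 and 1.64, and none was called. Marker signals of muscle, skin, leukocytes, pancreas and liver are given beside the results they touch.

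The second day brought few calls. Of 15502 probe sets, 68 were called (0.439%), of which 27 were higher at 4 dpf (0.174%) and 41 were higher at 5 dpf (0.264%). They stand for 51 genes, 23 higher at 4 dpf and 28 higher at 5 dpf, and 13 of the 68 have no single symbol. For comparison, the fit called 509 (3.28%) between 3 and 4 dpf, a contrast that uses the same 4 dpf arrays. Without the fold limit, 1251 probe sets passed the adjusted p, 385 of them higher at 4 dpf and 866 higher at 5 dpf, and 806 of the 1251 had a mean signal under 5. At an unadjusted p under 0.05 there were 3615. In all 68 called probe sets the signals at 4 and 5 dpf did not overlap, against 33.6% of all probe sets tested. A fold of at least 2, whatever the p, was found in 168 probe sets.

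Of the 68, 38 had means of at least 5 at both ages and 16 had means under 5 at both. The number of calls still depended on whether dim probe sets entered the test and on having all 3 arrays at 4 dpf. It was 9 when probe sets averaging under 5 over the 6 arrays at 4 and 5 dpf were left out before the test. In that test 44 of the 68 were still included. It was 12 when signals under 4 were raised to 4. It was 29, 19 and 27 without 4 dpf replicate 1, 2 and 3. No alternative reversed a called probe set. As the groups of all 68 do not overlap, leaving out 1 array could not do so, and most other settings leave the difference unchanged. Of the 68, 8 were called in every left-out fit and every other setting in which they were tested: gins2, smarcad1a, sulf1, 1 probe set of cdk8, both called probe sets of ptp4a3b and 2 with no symbol. Of these, sulf1 and 1 with no symbol averaged under 5 over the 6 arrays, so the test without such probe sets did not include them.

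**Figure D1:**
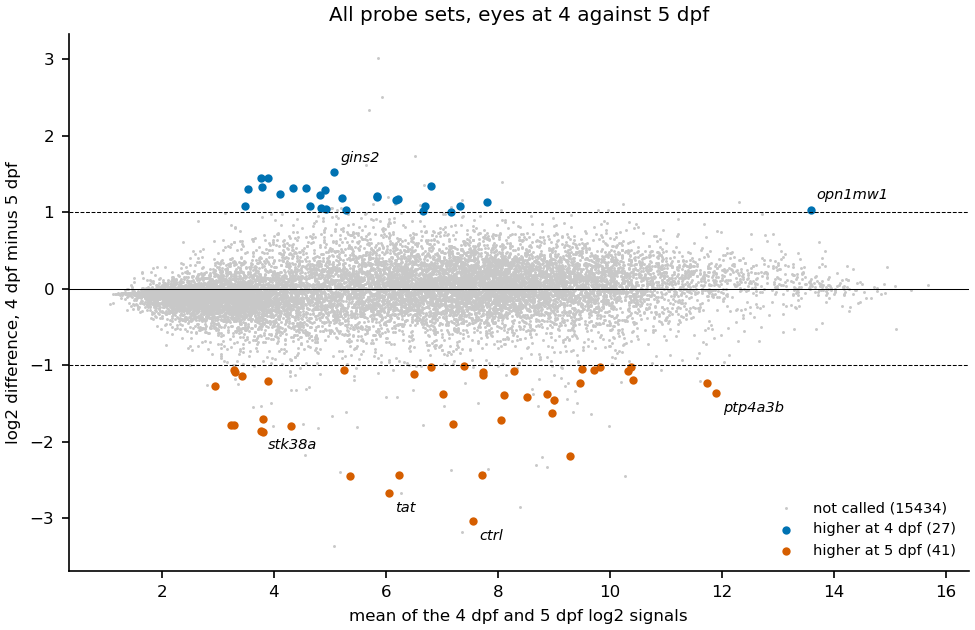
Each point is 1 of 15502 probe sets, with the mean of the 4 dpf and 5 dpf log2 signals on the horizontal axis and the log2 difference, 4 dpf minus 5 dpf, on the vertical axis. The 27 probe sets called higher at 4 dpf lie between 1.01 and 1.52, the 41 called higher at 5 dpf reach -3.03, and the grey points beyond the dashed lines at a fold of 2 missed the adjusted p.

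Of the 4 largest called differences 3 were in digestive enzymes, all higher at 5 dpf. ctrl, a chymotrypsin-like protease of pancreatic juice, had signals of 6.42, 6.38 and 5.35 at 4 dpf and 8.34, 9.17 and 9.74 at 5 dpf, a difference of -3.03 (standard error 0.46, adjusted p = 0.012) or 8.18-fold. The chymotrypsinogen gene ctrb.2 was at 4.98, 5.49 and 4.56 at 4 dpf and 6.58, 7.21 and 8.54 at 5 dpf, 5.41-fold higher at 5 dpf (standard error 0.49, adjusted p = 0.029). In both genes the 4 dpf arrays were all below the 5 dpf arrays, 5 dpf replicate 3 was the highest and 5 dpf replicate 1 the lowest of its group. The carboxypeptidase gene cpa5 was at 4.25, 4.3 and 3.86 at 4 dpf and 6.30, 6.68 and 6.76 at 5 dpf, a difference of -2.45 (standard error 0.52, adjusted p = 0.034). The carboxypeptidase B gene cpb1 was called by its dimmer probe set, at 3.25, 3.53 and 3.49 at 4 dpf and 4.48, 5.15 and 6.0 at 5 dpf (-1.79, standard error 0.37, adjusted p = 0.032), and the brighter gave -2.4 with an adjusted p of 0.088. cpa5 was tight within 4 dpf and within 5 dpf, whereas cpb1 had the order of arrays seen in ctrl at 5 dpf. At 3 dpf cpa5 was at 3.79, 6.02 and 4.31, with replicate 2 above every 4 dpf array.

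Other enzymes of the acinar cell differed by as much without passing the limits. The pancreatic amylase amy2a was at 6.48, 5.91 and 4.90 at 4 dpf and 8.17, 8.44 and 10.22 at 5 dpf, a difference of -3.18 (adjusted p = 0.053), the closest to the limit of the probe sets with a fold of at least 2 and 1 symbol. The elastase genes ela2l, ela2 and ela3l had differences of -2.4, -2.36 and -2.67, with adjusted p from 0.099 to 0.105. ctrb.1 and the trypsin gene prss1 had differences of -2.85 and -2.32 (adjusted p = 0.113 and 0.129). Each of these 6 genes spread over more than 1 log2 unit among the 3 arrays at 5 dpf, with replicate 3 the highest, and in each the groups did not overlap.

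Of 27 measured genes of the pancreas list, 2 were called higher at 5 dpf (0.284% of all genes were) and none higher at 4 dpf. By the adjusted p alone 3 were higher at 5 dpf (4.66% of all genes), ctrl, ctrb.2 and the dim somatostatin gene sst2. At an unadjusted p under 0.05 there were 23 (12.8% of all genes), and 24 did not overlap (19% of all genes). The median over the list was -1.54 against -0.02 over all genes, and -2.42 for the 10 members with a mean of at least 5. The insulin gene insb was dim at 2.2 and 2.59. Over the first day, 3 dpf minus 4 dpf, the median was -0.03 for the 27 genes and -1.28 for the 10 brighter members. The 3 genes by adjusted p became 6 without 3 dpf replicate 2, then 2, 1 and 2 without 4 dpf replicate 1, 2 and 3, and 8 and 5 without 5 dpf replicate 1 and 3.

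cpa5 was not among the 27. In zebrafish it also marks mast cells, and it stands in the leukocyte list, of which 2 of 36 genes were called higher at 5 dpf (0.284% of all genes were), cpa5 and slc43a2b. The sum over 3 leukocyte markers was 8.30 to 8.63 at 4 dpf and 7.62 to 10.01 at 5 dpf, and the groups overlapped.

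The levels are sums over a dissected sample, in which more cells of a type and more RNA per cell cannot be told apart. The 6 pancreas markers summed to a log2 signal of 8.42 to 9.59 at 4 dpf and of 10.8 to 12.6 at 5 dpf, with all 6 higher in mean at 5 dpf and none averaging under 4. At 3 dpf this sum was 6.80 to 9.80, which overlapped with 4 dpf. The sum over the liver markers fabp10a, apoa2, fga, ambp and tfa was 11.5 to 13.3 at 4 dpf and 11.2 to 13.9 at 5 dpf, which overlapped, with 3 of the 5 higher in mean at 4 dpf. The part that tissue carried along in dissection has in these values was not tested.

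Of 71 measured genes of the liver list, only tat was called, higher at 5 dpf (0.284% of all genes were). tat encodes tyrosine aminotransferase, which breaks down tyrosine and is induced in the liver by glucocorticoids. Its signals were 5.24, 5.00 and 3.92 at 4 dpf and 7.68, 6.21 and 8.28 at 5 dpf, a difference of -2.67 (standard error 0.64, adjusted p = 0.047). The groups did not overlap, with 5 dpf replicate 2 the lowest of its age. The liver carrier protein fabp10a was at 6.83, 7.26 and 5.33 at 4 dpf and 6.67, 3.98 and 7.60 at 5 dpf, and the groups overlapped. igfbp1b, a binding protein for insulin-like growth factors, was at 4.48, 4.97 and 4.32 at 4 dpf and 5.73, 6.06 and 7.38 at 5 dpf, without overlap but not called (-1.80, adjusted p = 0.061). Over the liver list the median was -0.23, with 53 of the 71 means higher at 5 dpf (52.8% of all genes). At an unadjusted p under 0.05 there were 10 higher at 5 dpf (12.8% of all genes) and 1 higher at 4 dpf (10.7%). By the adjusted p alone 1 was higher at 4 dpf (3.17% of all genes) and 2 higher at 5 dpf (4.66%).

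**Figure D2:**
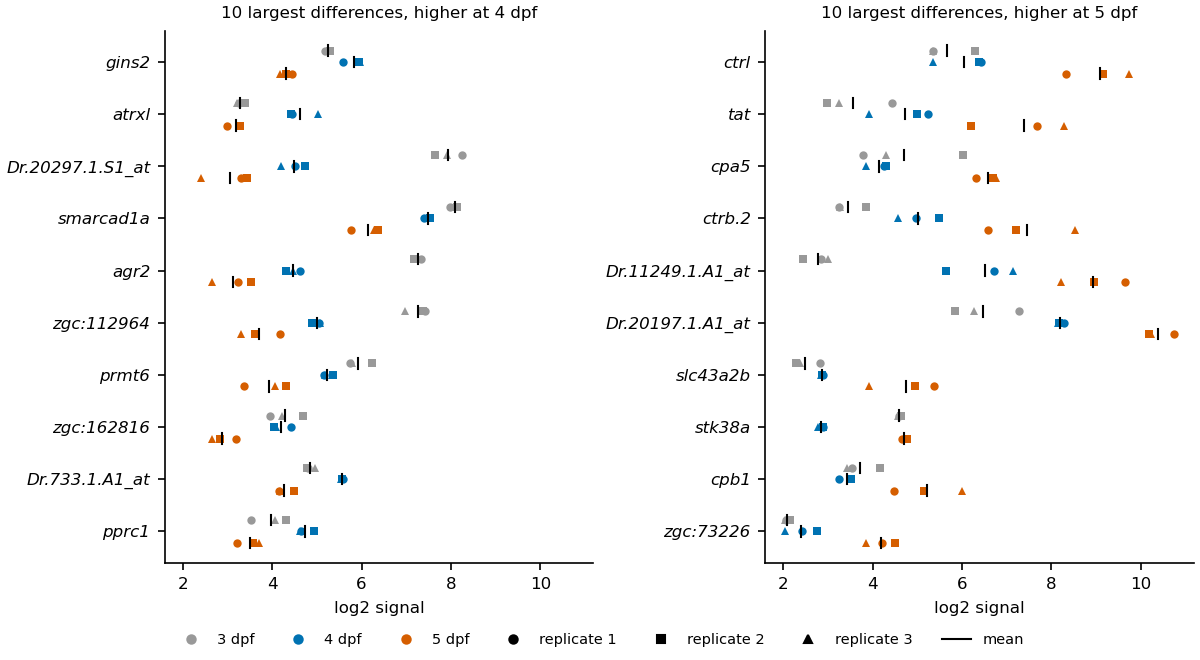
Log2 signals of the 10 largest called differences in each direction on all 9 arrays, with age as colour, replicate number as shape and a bar at the mean of 3 arrays. Probe sets without a symbol keep their identifier. In every row the blue 4 dpf points and the orange 5 dpf points do not overlap, and tat and ctrb.2 spread most at 5 dpf.

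Genes of growth arrest and the stress response were also higher at 5 dpf. gadd45ba, which is induced by DNA damage and growth arrest, was called by both of its probe sets. The brighter was at 8.56, 7.95 and 8.34 at 4 dpf and 9.78, 9.73 and 9.68 at 5 dpf, a difference of -1.45 (standard error 0.28, adjusted p = 0.025). The dimmer gave -1.78 (standard error 0.23, adjusted p = 0.0076), from 2.34 to 4.12. The bright probe set was already higher at 4 dpf than at 3 dpf, where it was at 7.68, 6.64 and 6.73.

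ppp1r15a, known as GADD34, guides a phosphatase to the initiation factor eIF2 alpha and so lets translation restart after stress. Its brightest probe set was at 7.33, 7.10 and 7.06 at 4 dpf and 8.20, 8.31 and 8.38 at 5 dpf, a difference of -1.13 (standard error 0.22, adjusted p = 0.026). Of its 4 probe sets 2 were called, and all 4 were higher at 5 dpf, with differences from -1.21 to -0.57. klf2a, a zinc finger factor known for its response to blood flow, was at 8.10, 7.51 and 7.81 at 4 dpf and 9.21, 9.64 and 8.82 at 5 dpf (-1.41, standard error 0.26, adjusted p = 0.02). In ppp1r15a and klf2a the 3 dpf arrays lay close to those at 4 dpf, with 3 dpf means of 6.84 and 7.89.

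socs1a, an inhibitor of cytokine signalling through JAK kinases, had a called probe set near the dim end, at 2.38, 2.35 and 2.21 at 4 dpf and 3.61, 3.65 and 3.49 at 5 dpf (-1.27, adjusted p = 0.002). It lies wholly under 4 and was not called when signals under 4 were set to 4. Its brighter probe set gave -1.42, from 5.29 to 6.71, with an adjusted p of 0.08. casp9, the initiator caspase of the mitochondrial death pathway, was at 6.91, 6.81 and 6.95 at 4 dpf and 7.79, 7.87 and 8.02 at 5 dpf, a difference of -1.01 (standard error 0.08, adjusted p = 0.002). Its 6 values were tight, it was bright at both ages, and it was called in the restricted tests as well, but its fold was under 2 when 5 dpf replicate 3 or 4 dpf replicate 2 was left out.

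Of 63 measured genes of the early response and stress list, 3 were called higher at 5 dpf (0.284% of all genes were), klf2a, gadd45ba and pdk2b, and none higher at 4 dpf. By the adjusted p alone 6 were higher at 5 dpf (4.66% of all genes), among them dusp6, a phosphatase that limits ERK signalling, at -0.46 (adjusted p = 0.022), and mcl1a, which protects cells from apoptosis, at -0.65 (adjusted p = 0.027). At an unadjusted p under 0.05 there were 29 higher at 5 dpf (12.8% of all genes) and 0 higher at 4 dpf (10.7% of all genes). The median of the list was -0.44, and it was -0.32 over the first day. No member passed the adjusted p when signals under 4 were raised to 4 or probe sets averaging under 5 were left out, where 25 and 26 had an unadjusted p under 0.05. The 6 became 10 without 3 dpf replicate 1, then 3, 1 and 1 without 4 dpf replicate 1, 2 and 3, and 3 without 5 dpf replicate 2. dusp1 and cebpd, both induced by stress hormones, had differences of -0.96 and -1.27 (adjusted p = 0.071 and 0.069).

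Several enzymes and carriers of metabolism were called higher at 5 dpf. pdk2b, a kinase that switches off pyruvate dehydrogenase and spares glucose, was at 7.37, 7.65 and 7.24 at 4 dpf and 8.55, 8.85 and 9.02 at 5 dpf, a difference of -1.39 (standard error 0.31, adjusted p = 0.037). The mitochondrial uncoupling protein gene ucp3 was dim at 4 dpf, with 3.00, 2.93 and 2.94 at 4 dpf and 5.25, 5.07 and 3.66 at 5 dpf (-1.70, standard error 0.39, adjusted p = 0.043). slc43a2b, a carrier of large neutral amino acids, was likewise near background at 4 dpf, with 2.90, 2.87 and 2.85 at 4 dpf and 5.37, 4.96 and 3.91 at 5 dpf (-1.87, standard error 0.35, adjusted p = 0.021). In ucp3 and slc43a2b the 3 arrays at 4 dpf lay close together while those at 5 dpf spread widely, with replicate 3 the lowest. When signals under 4 were set to 4 neither was called.

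cyp24a1, the enzyme that inactivates vitamin D, was at 6.57, 6.19 and 6.16 at 4 dpf and 8.24, 8.21 and 7.78 at 5 dpf, 3.41-fold higher at 5 dpf (standard error 0.34, adjusted p = 0.023). pank2, which starts the synthesis of coenzyme A, gave -1.07 (standard error 0.21, adjusted p = 0.027), and its second probe set -0.40. arrdc2, of the arrestin domain family, was at 8.54, 8.13 and 7.80 at 4 dpf and 10.33, 9.55 and 9.46 at 5 dpf (-1.63, standard error 0.36, adjusted p = 0.039). On these probe sets cyp24a1 and arrdc2 did not overlap between the ages, and 5 dpf replicate 1 was the highest array in both. A second, dim probe set gave -0.06 for cyp24a1 (adjusted p = 0.461) and -0.23 for arrdc2 (adjusted p = 0.021).

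ptp4a3b, a small phosphatase of the PRL family, was bright on 2 called probe sets, and both were called under every alternative in which they were tested. The first was at 11.21, 11.02 and 11.43 at 4 dpf and 12.55, 12.63 and 12.57 at 5 dpf, a difference of -1.37 (standard error 0.10, adjusted p = 0.002). The other gave -1.23 (standard error 0.15, adjusted p = 0.007), from 11.12 to 12.35. The 3 dpf means of 10.97 and 10.87 lay just under those at 4 dpf. Another, dim probe set of ptp4a3b gave -0.01.

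mknk2b, a kinase that phosphorylates the cap-binding factor eIF4E, was at 9.50, 9.95 and 9.98 at 4 dpf and 10.71, 10.98 and 11.33 at 5 dpf (-1.2, standard error 0.25, adjusted p = 0.033). Its other 2 probe sets gave -1.23 and -1.19 without a call, so the 3 had nearly the same difference at different brightness. stk38a, a kinase of the NDR family, had the smallest adjusted p of all called probe sets, at 2.90, 2.88 and 2.78 at 4 dpf and 4.65, 4.78 and 4.69 at 5 dpf (-1.85, standard error 0.05, adjusted p = 3.56e-05). At 3 dpf it was at 4.58, 4.63 and 4.57, so the 4 dpf arrays alone were low, all under 4. With signals under 4 set to 4 its fold was under 2 and stk38a was not called.

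Regulators of transcription were called in both directions. Higher at 5 dpf were hbp1, a repressor of growth genes (-1.02, standard error 0.18, adjusted p = 0.018), and smarca1, an ATPase of chromatin remodelling complexes of the ISWI family (-1.11, standard error 0.26, adjusted p = 0.045). hbp1 was at 9.17, 9.20 and 9.55 at 4 dpf and 9.98, 10.52 and 10.49 at 5 dpf. runx3 and pax9, factors of skeletal and jaw development, were also called higher at 5 dpf, at -1.14 and -1.06, but both were under 4 at 4 dpf and higher at 3 dpf than at either later age. The 5 dpf values were 4.43, 3.84 and 3.71 for runx3 and 3.68, 3.82 and 3.98 for pax9.

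The remaining named calls higher at 5 dpf were nptx1l, a pentraxin-like gene (-1.05, adjusted p = 0.0499), vps37a of the endosomal sorting machinery (-1.07), lratd2a (-1.07), znf395a (-1.02) and zgc:73226 (-1.78). nptx1l sat at the limit, and was called in only 1 of 9 fits that left out an array. A further 10 called probe sets without a single symbol were higher at 5 dpf. The largest of these was at 6.72, 5.65 and 7.15 at 4 dpf and 9.65, 8.96 and 8.21 at 5 dpf, and the next at 8.29, 8.16 and 8.16 at 4 dpf and 10.75, 10.18 and 10.24 at 5 dpf. Neither pair of groups overlapped, and the first had been at 2.77 at 3 dpf.

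On the other side, genes of DNA replication and cell division were higher at 4 dpf. gins2, a subunit of the GINS complex that travels with the replicative helicase, had the largest difference in this direction. It was at 5.58, 5.95 and 5.97 at 4 dpf and 4.45, 4.32 and 4.18 at 5 dpf, a difference of 1.52 (standard error 0.12, adjusted p = 0.002) or 2.87-fold, with no overlap and a narrow spread within each age. At 3 dpf it was at 5.17, 5.3 and 5.27, below every 4 dpf array. trip13, an ATPase that silences the spindle checkpoint, was at 6.44, 6.42 and 6.44 at 4 dpf and 4.48, 5.56 and 5.66 at 5 dpf (1.2, standard error 0.29, adjusted p = 0.049). zwilch, of the kinetochore complex that recruits dynein, was at 6.72, 6.73 and 6.83 at 4 dpf and 5.47, 5.14 and 6.20 at 5 dpf (1.16, standard error 0.24, adjusted p = 0.033).

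In trip13 a single array, 5 dpf replicate 1, was far below its group, and zwilch had its spread at 5 dpf too. trip13 was called in 1 and zwilch in 2 of 9 fits without an array. Their 3 dpf means of 6.68 and 6.76 were close to those at 4 dpf.

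Of 90 measured genes of the cell cycle list, 2 were called higher at 4 dpf (0.239% of all genes were), gins2 and zwilch, and none higher at 5 dpf. By the adjusted p alone 17 were higher at 4 dpf (3.17% of all genes) and 0 higher at 5 dpf, and at an unadjusted p under 0.05 the counts were 49 (10.7% of all genes) and 0. The mean was higher at 4 dpf for 82 of the 90, against 47.2% of all genes, and 52 did not overlap in that direction (12.2% of all genes). Its median was 0.47 against -0.02 for all genes, and 0.48 against 0.06 when only genes with a mean of at least 5 were taken. Over the first day it was 0.16.

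The 17 covered most steps of the cycle. Among replication genes, the helicase subunit mcm3 was at 8.22, 8.14 and 8.12 at 4 dpf and 7.03, 7.33 and 7.27 at 5 dpf (0.95, standard error 0.09, adjusted p = 0.0029), and the polymerase delta gene pold1 and the DNA-binding subunit rpa3 gave 0.74 and 0.87. Among mitotic genes, incenp and birc5a of the chromosomal passenger complex gave 0.92 and 0.72, and cdc20, which activates the anaphase-promoting complex, 0.75. The kinases cdk2, chek1, aurka and cdk1 gave 0.82, 0.73, 0.45 and 0.48. The adjusted p over these 10 genes ran from 0.0029 for mcm3 to 0.047 for cdk1, and none reached a fold of 2. tyms, the thymidylate synthase, had a fold of 2 but an adjusted p of 0.065.

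The arrays at 5 dpf were not alike in this list. Taking each gene's deviation from its mean over 9 arrays, the list median was 0.07, 0.10 and 0.09 on the 4 dpf arrays and -0.67, -0.27 and -0.15 on the 5 dpf arrays, so that 5 dpf replicate 1 stood lowest. The groups did not overlap. The number of genes by adjusted p was 7 with only the 6 arrays fitted, 2 with probe sets averaging under 5 left out and 3 without 4 dpf replicate 1, 2 or 3, while the number at an unadjusted p under 0.05 was between 36 and 45 in those fits. Without 3 dpf replicate 2 and 3 it was 8 and 10 by adjusted p.

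**Figure D3:**
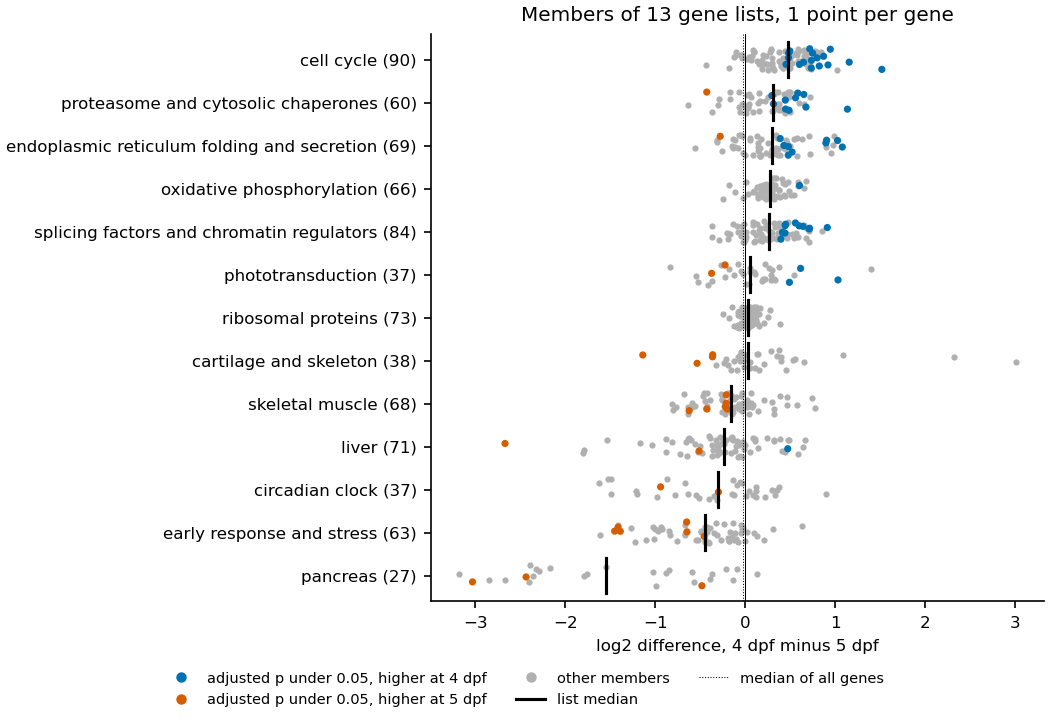
Log2 differences, 4 dpf minus 5 dpf, of the measured members of 13 gene lists, 1 point per gene, with the number of genes in brackets. Blue and orange points passed an adjusted p under 0.05 over all probe sets, the heavy bar is the list median and the dotted line the median of all genes. The cell cycle list has its median at 0.47 and the pancreas list at -1.54, and the ribosomal proteins cluster at 0.03.

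sox11b, a factor of immature neurons, was at 7.68 and 6.68 (1.00, adjusted p = 0.02), just short of the fold limit. hes6, which promotes neuronal differentiation, gave 0.84 (adjusted p = 0.014), and the tubulin tubb5 0.77 (adjusted p = 0.018). These were the only 3 of 61 measured genes of the progenitor list with an adjusted p under 0.05, all higher at 4 dpf (3.17% of all genes were), and the list median was 0.04. Of its members with a mean of at least 5, 61.2% had a higher mean at 4 dpf, against 59% of all such genes. In the list of neuronal cytoskeleton genes 5 of 36 were higher at 4 dpf by the adjusted p (3.17% of all genes) and 1 higher at 5 dpf (4.66%). At an unadjusted p under 0.05 these were 7 (10.7% of all genes) and 3 (12.8%). The 5 had tubb5 again among them, along with dpysl5a (0.80, adjusted p = 0.0074) and tubb2b (0.58, adjusted p = 0.0054).

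Chromatin and transcription genes called higher at 4 dpf included several helicase-like ATPases. smarcad1a, known from human cells to remodel nucleosomes behind replication forks, was at 7.40, 7.52 and 7.53 at 4 dpf and 5.76, 6.37 and 6.29 at 5 dpf (1.34, standard error 0.15, adjusted p = 0.0053). cdk8, the kinase of the Mediator complex, was called by both of its probe sets, at 1.21 (standard error 0.15, adjusted p = 0.0071) and 1.07 (standard error 0.18, adjusted p = 0.017). The first of these was at 6.41, 6.5 and 6.44 at 4 dpf and 5.29, 5.24 and 5.19 at 5 dpf. In smarcad1a and this probe set of cdk8 the 3 arrays at 4 dpf lay close together, and every 5 dpf array was at least 1 log2 unit below them.

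prmt6, a methyltransferase of histone arginines, was at 5.15, 5.37 and 5.18 at 4 dpf and 3.37, 4.31 and 4.07 at 5 dpf (1.32, standard error 0.25, adjusted p = 0.022). pprc1, a coactivator related to PGC-1, gave 1.23 (standard error 0.22, adjusted p = 0.019), and eri1, an exonuclease that trims histone mRNA and small RNAs, 1.05 (standard error 0.23, adjusted p = 0.037). In each of prmt6 and eri1 the lowest array was 5 dpf replicate 1. A dimmer probe set of eri1 gave 0.18 (adjusted p = 0.627).

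atrxl and smarca5 were called by dim probe sets that their brighter probe sets did not match. For atrxl the called probe set was at 4.44, 4.41 and 5.02 at 4 dpf and 2.99, 3.29 and 3.26 at 5 dpf (1.45, standard error 0.17, adjusted p = 0.0059), and the brighter, near 8.6 at both ages, gave -0.02. smarca5, an ATPase of the same family as smarca1, gave 1.08 (standard error 0.19, adjusted p = 0.018) on the called probe set and 0.68 (adjusted p = 0.153) on the brightest. smarca1 and smarca5 thus had called probe sets in opposite directions.

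In the list of splicing factors and chromatin regulators, 11 of 84 genes were higher at 4 dpf by the adjusted p (3.17% of all genes) and 0 higher at 5 dpf. At an unadjusted p under 0.05 these were 28 (10.7% of all genes) and 3 (12.8%). Over the list the median was 0.26. The RNA-binding protein genes hnrnpabb and hnrnpa0b gave 0.91 and 0.72 (adjusted p = 0.02 and 0.0071), the DNA methyltransferase dnmt3ba 0.71 (adjusted p = 0.036) and the splicing factor srsf1a 0.64 (adjusted p = 0.013). The median deviation over the list was -0.04 to 0.03 on the 4 dpf arrays and -0.30 to -0.20 on the 5 dpf arrays, without overlap. The number of genes by adjusted p was 4, 1 and 3 without 4 dpf replicate 1, 2 and 3, 7 without 3 dpf replicate 2, and 7 and 6 without 5 dpf replicate 1 and 3. It was 0 when probe sets averaging under 5 were left out, with 23 at an unadjusted p under 0.05.

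Protein folding in the endoplasmic reticulum (ER) contributed 2 calls higher at 4 dpf. manf, a factor secreted on ER stress that protects neurons, was at 5.78, 5.80 and 5.80 at 4 dpf and 4.47, 4.77 and 5.07 at 5 dpf (1.03, standard error 0.15, adjusted p = 0.01), and its dimmer probe set gave 0.09. fkbp9, a prolyl isomerase of the ER, was at 7.67, 8.03 and 7.91 at 4 dpf and 6.58, 7.0 and 6.80 at 5 dpf (1.08, standard error 0.17, adjusted p = 0.013). Both had been higher still at 3 dpf, at 6.94 and 9.80. Of 69 measured genes of the ER list 9 were higher at 4 dpf by the adjusted p (3.17% of all genes) and 1 higher at 5 dpf (4.66%), the dim ero1a, and at an unadjusted p under 0.05 these were 22 (10.7% of all genes) and 3 (12.8%). The chaperone genes calr3b and hyou1 gave 0.91 and 0.90 (adjusted p = 0.033 and 0.047). The list median was 0.30, and 0.58 over the first day, in which 27 genes were higher at 3 dpf by the adjusted p (639 of all 8793 genes were).

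Without 4 dpf replicate 2, and with signals under 4 set to 4, no ER gene passed the adjusted p, with 21 at an unadjusted p under 0.05 in each case. The number was 2 and 1 without 4 dpf replicate 1 and 3, 5 without 3 dpf replicate 3 and 4 without 5 dpf replicate 1. The median deviation of the ER list was -0.20, -0.11 and -0.06 on the 4 dpf arrays and -0.56, -0.19 and -0.40 on the 5 dpf arrays. Here 5 dpf replicate 2 lay above 4 dpf replicate 1, and the groups overlapped.

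psmd11b, a lid subunit of the 26S proteasome, was at 8.37, 8.43 and 8.33 at 4 dpf and 7.42, 7.54 and 6.76 at 5 dpf (1.14, standard error 0.22, adjusted p = 0.024), and 4 dpf was higher throughout. Of 60 genes of the proteasome and cytosolic chaperones, 10 were higher at 4 dpf by the adjusted p (3.17% of all genes) and 1 higher at 5 dpf (4.66%), unc45b, a myosin chaperone of muscle. psma6a gave 0.65 and psma5 0.68 (adjusted p = 0.0059 and 0.043). The 10 became 6 without 3 dpf replicate 2, then 2, 1 and 1 without 4 dpf replicate 1, 2 and 3, and 4 without 5 dpf replicate 1. The list median was 0.31, with array medians of -0.18 to 0.07 at 4 dpf and -0.61 to -0.02 at 5 dpf, which overlapped. The 73 ribosomal protein genes had a median of 0.03 with no call. At an unadjusted p under 0.05 there were 4 higher at 4 dpf (10.7% of all genes) and 0 higher at 5 dpf (12.8%). The 66 genes of oxidative phosphorylation had a median of 0.28 with 62 of the means higher at 4 dpf, against 59.0% of all genes with a mean of at least 5, and with 1 higher at 4 dpf by the adjusted p, ndufc2 (0.59, adjusted p = 0.039). Its array medians were -0.15, 0.23 and 0.24 at 4 dpf and -0.57, 0.16 and -0.06 at 5 dpf, so the groups overlapped and 5 dpf replicate 1 stood lowest.

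**Figure D4:**
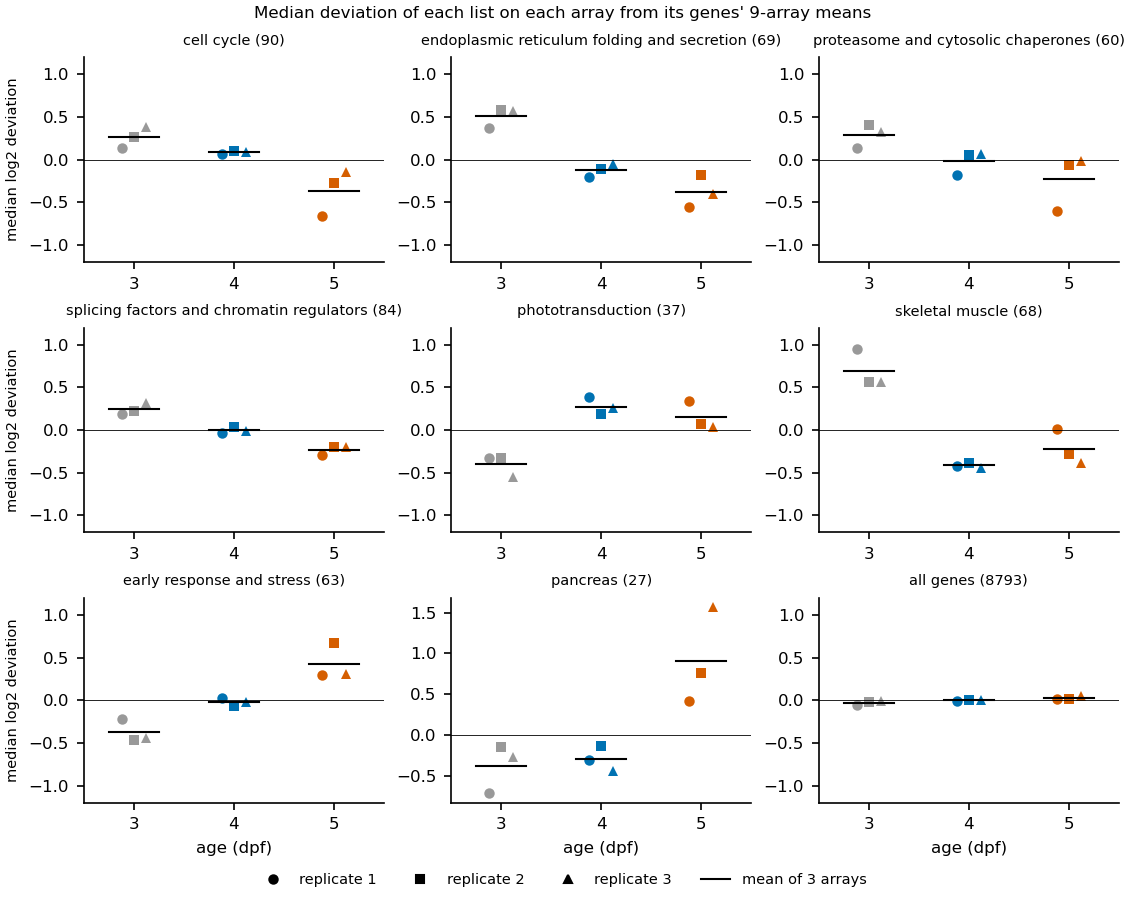
Median over each list of the genes' log2 deviations from their 9-array means, on each array, against age in dpf, with replicate number as shape and a bar at the mean of 3 arrays. The pancreas panel has a wider axis than the rest. The cell cycle medians at 5 dpf are -0.67, -0.27 and -0.15, all below those at 4 dpf, and the pancreas medians at 5 dpf run from 0.42 to 1.56.

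Among photoreceptor genes the largest differences that passed the adjusted p were in cone opsins. opn1mw1, the green cone opsin RH2-1, was at 14.13, 14.03 and 14.13 at 4 dpf and 13.47, 12.75 and 12.97 at 5 dpf, 2.05-fold higher at 4 dpf (1.03, standard error 0.17, adjusted p = 0.016). At 3 dpf it was at 13.83, 14.07 and 13.88, close to 4 dpf. The blue opsin opn1sw2 was at 13.86, 14.08 and 14.21 at 4 dpf and 13.47, 13.41 and 13.41 at 5 dpf and passed the adjusted p without the fold (0.62, standard error 0.11, adjusted p = 0.018). The ultraviolet opsin opn1sw1 gave 0.29 (adjusted p = 0.067), again without overlap, from 15.00, 15.17 and 15.11 to 14.77, 14.83 and 14.80. opn1mw1 was called in 4 of 9 fits without an array.

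Downstream of the opsins, the cone transducin beta subunit gnb3b gave 0.49 (adjusted p = 0.032), the alpha subunit gnat2 0.28 (adjusted p = 0.233) and the cone phosphodiesterase pde6c -0.22, the latter not past any limit. guca1b, an activator of guanylate cyclase, was at 9.01 and 9.55 (-0.54, adjusted p = 0.185). Of 37 measured phototransduction genes 1 was called higher at 4 dpf (0.239% of all genes were). By the adjusted p alone 3 were higher at 4 dpf (3.17% of all genes) and 2 (4.66%), guca1aa and opn1mw4, both under 4, higher at 5 dpf. The list median was 0.06. Over the first day it was -0.68, in a contrast that shares the 4 dpf arrays. By the adjusted p 17 of the 37 genes were higher at 4 dpf than at 3 dpf (565 of all 8793 genes were). None was higher at 3 dpf (639 of all 8793 genes were).

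Of the retinoid cycle and retinol transport list none of 19 genes passed the adjusted p. At an unadjusted p under 0.05 there were 4 higher at 4 dpf (10.7% of all genes) and 4 higher at 5 dpf (12.8%). The visual cycle protein gene rlbp1a gave 0.53 (adjusted p = 0.064) and rpe65a -0.01. The amacrine genes gad1b (12.61 and 12.83) and slc32a1 (11.64 and 11.34) and the bipolar gene vsx1 (12.30 and 12.05) overlapped between the ages. None was past the limits. Of 30 measured genes of the inner retinal neuron list 22 had a higher mean at 4 dpf, with a median of 0.15. Among members with a mean of at least 5 this share was 82.6%, against 59% of all such genes. At an unadjusted p under 0.05 there were 4 higher at 4 dpf (10.7% of all genes) and 1 higher at 5 dpf (12.8%). The array medians of this list were -0.04 to 0.10 at 4 dpf and -0.23 to -0.05 at 5 dpf, without overlap.

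Clock genes gave large differences that did not pass the test. cry2, a cryptochrome that represses the clock, was at 8.23, 9.14 and 8.61 at 4 dpf and 9.99, 10.60 and 9.86 at 5 dpf (-1.49, adjusted p = 0.094). bhlhe41, another repressor, was at 8.24, 9.34 and 8.98 at 4 dpf and 10.11, 11.16 and 10.18 at 5 dpf (-1.63, adjusted p = 0.141). ddb2, a light-induced DNA repair gene, was at 6.31, 6.55 and 5.97 at 4 dpf and 7.57, 8.13 and 7.72 at 5 dpf (-1.53, adjusted p = 0.056). In all 3 genes the 4 and 5 dpf arrays did not overlap, and the 3 dpf arrays, which enter the error of this fit, spread widely.

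None of 37 measured clock genes was called. By the adjusted p alone 2 dim genes, nr1d2a and per3, were higher at 5 dpf (4.66% of all genes), at -0.94 and -0.30. At an unadjusted p under 0.05 there were 8 higher at 5 dpf (12.8% of all genes) and 1 higher at 4 dpf (10.7%). On the side of 5 dpf 14 did not overlap (19% of all genes). The list median was -0.30. The sources used here do not give the hour of collection.

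Cartilage and muscle lie around the eye, and of the genes annotated in their lists runx3 was the only call between these days. col10a1a, a collagen of bone and hypertrophic cartilage, was at 8.16, 7.52 and 6.44 at 4 dpf and 6.04, 3.26 and 3.78 at 5 dpf, a difference of 3.01 that missed the limit (standard error 0.78, adjusted p = 0.06). The cartilage matrix gene matn1 was at 6.48, 8.43 and 5.67 at 4 dpf and 4.32, 4.68 and 4.59 at 5 dpf (2.33, adjusted p = 0.069). Both spread widely within an age, matn1 at 4 dpf and col10a1a at 4 and 5 dpf, and neither overlapped between the ages. The sum over 3 cartilage markers was 10.13 to 10.8 at 4 dpf and 9.21 to 9.88 at 5 dpf, and it was 13.5 to 14.2 at 3 dpf. The cartilage list had a median of 0.03 over 38 genes, against 1.16 for 3 dpf minus 4 dpf. Over that first day 24 genes of the cartilage list were higher at 3 dpf by the adjusted p (639 of all 8793 genes were). Among its 19 members with a mean of at least 5 the median between 4 and 5 dpf was 0.37, with 17 of the means higher at 4 dpf and 9 at an unadjusted p under 0.05, against 0 higher at 5 dpf. Of all 5880 genes with such a mean, 59% had a higher mean at 4 dpf. At that p, 800 of them were higher at 4 dpf and 430 higher at 5 dpf. The 4 members of the cartilage list higher at 5 dpf by the adjusted p (4.66% of all genes) were all dim.

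Of 68 measured skeletal muscle genes none was called, and 6 were higher at 5 dpf by the adjusted p (4.66% of all genes). At an unadjusted p under 0.05 there were 1 higher at 4 dpf (10.7% of all genes) and 9 higher at 5 dpf (12.8%). The brightest, the sarcomeric actin actc1b, was at 9.34, 9.02 and 8.46 at 4 dpf and 10.11, 9.34 and 8.04 at 5 dpf, and the groups overlapped. The sum over 7 muscle markers was 9.74 to 10.3 at 4 dpf and 9.26 to 11.3 at 5 dpf, with 5 dpf replicate 1 the highest and replicate 3 the lowest. Over the first day the median of the list was 1.12, with 40 genes higher at 3 dpf by the adjusted p (639 of all 8793 genes were).

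sulf1, an enzyme outside the lists, was also higher at 4 dpf. It removes sulfate groups from heparan sulfate at the cell surface and was at 5.46, 5.43 and 5.41 at 4 dpf and 4.35, 4.21 and 4.05 at 5 dpf (1.23, standard error 0.11, adjusted p = 0.0026). Its second probe set, which was dimmer, gave -0.34 (adjusted p = 0.049), the opposite direction. agr2, a disulfide isomerase of mucus-secreting cells and the only call of the epidermis list, was at 4.62, 4.3 and 4.46 at 4 dpf and 3.22, 3.52 and 2.65 at 5 dpf (1.33, standard error 0.21, adjusted p = 0.013). Skin markers krt4, krt5 and icn summed to 13.8 to 14.0 at 4 dpf and 13.6 to 13.9 at 5 dpf, which overlapped.

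Other calls higher at 4 dpf were hsd17b8, a dehydrogenase of mitochondrial fatty acid synthesis (1.18), svopl, a transporter-like gene (1.08), aco1, the iron-sensing cytosolic aconitase (1.05), zgc:112964 (1.32), zgc:162816 (1.3), zgc:86764 (1.01) and si:ch211-11k18.4 (1.01), with adjusted p from 0.0076 to 0.036. aco1 was at 5.46, 5.81 and 5.11 at 4 dpf and 4.58, 4.14 and 4.52 at 5 dpf. svopl was dim on all 6 arrays, and hsd17b8 had a second probe set at -0.17. A further 3 probe sets had no symbol. The study's remapping of probes assigns the largest of these to tpm3, a tropomyosin gene that is in the muscle list under another probe set. The unnamed probe set went from 7.94 at 3 dpf to 4.48 and 3.04 (1.44, standard error 0.30, adjusted p = 0.03). The probe set annotated as tpm3 went from 10.80 to 10.25 and 10.18 (0.07, adjusted p = 0.638).

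Of the 18 called genes with more than 1 probe set, cdk8, gadd45ba, ppp1r15a and ptp4a3b had at least 2 called. In atrxl, hsd17b8 and sulf1 the probe sets of a gene lay on opposite sides of 0. The values just inside and outside the limits were close. nptx1l was called at an adjusted p of 0.0499, while cry5, of the cryptochrome and photolyase family, at -1.82, missed it at 0.053. si:ch211-266i6.3 (1.09, adjusted p = 0.055) was outside on the side of 4 dpf.

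Most called probe sets differed in mean in the same direction on the first day. Of the 27 higher at 4 dpf, 18 had their highest mean at 3 dpf, and of the 41 higher at 5 dpf, 31 had their lowest mean at 3 dpf. How many of all probe sets tested kept their direction was not counted. There were 21 of the 68 that were also called between 3 and 4 dpf (3.28% of all probe sets tested were). Since both contrasts use the 4 dpf arrays, an error in those arrays moves them in opposite directions, and their values are given side by side without a test of overlap. agr2 went from 7.25 to 4.46 and 3.13, and pdk2b from 5.92 to 7.42 and 8.81.

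A contrast within the same fit set the change from 4 to 5 dpf against the change from 3 to 4 dpf. It gave 930 probe sets at an adjusted p under 0.05 (6.0%), of which 720 had a mean under 5, and it gave 121 when signals under 4 were raised to 4. When probe sets averaging under 5 were left out it gave 0, with 823 at an unadjusted p under 0.05. Without 4 dpf replicate 1, 2 and 3 the numbers were 347, 258 and 265. Of the 68 called probe sets 16 passed it. In 1 of the 2 called probe sets of ptp4a3b the second-day change exceeded the first-day change by 1.12 (standard error 0.18, adjusted p = 0.013). The other, equally bright, gave 0.98 (standard error 0.27, adjusted p = 0.088). Among brighter probe sets casp9 gave 0.78 (standard error 0.14, adjusted p = 0.02) and hsd17b8 2.65 (standard error 0.44, adjusted p = 0.016). None of these passed when probe sets averaging under 5 were left out. gins2, highest at 4 dpf, gave -2.11 (standard error 0.21, adjusted p = 0.0026).

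**Figure D5:**
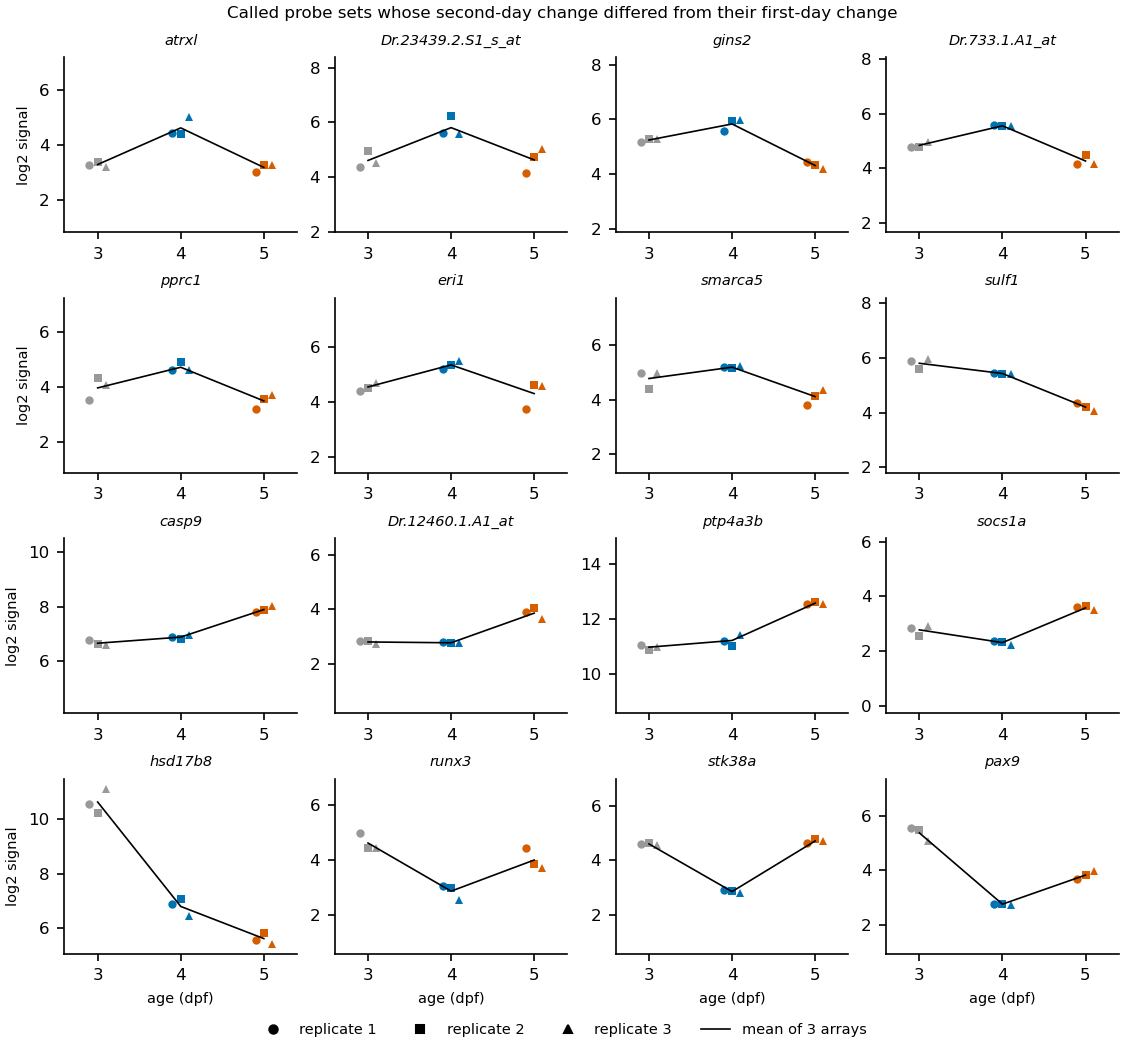
Log2 signals on the 9 arrays against age in dpf for the 16 called probe sets whose change from 4 to 5 dpf differed from that from 3 to 4 dpf, with replicate number as shape and a line through the means of 3 arrays. Every panel spans the same number of log2 units. The means of atrxl, gins2, pprc1, eri1 and smarca5 are highest at 4 dpf, and those of socs1a, runx3, stk38a and pax9 are lowest at 4 dpf.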

How the data were processed

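Whole-eye RNA of 9 wild type samples, 3 at each of 3, 4 and 5 dpf, was hybridised to the Affymetrix Zebrafish Genome Array. The authors deposited 1 table of log2 signals, which GCRMA summarised from the probes with background correction and normalisation. The version of GCRMA, and whether the 9 arrays were summarised together, are not given in the sources used here. GCRMA sets probe sets without signal to low values of small spread, and the replicate number limits the precision.

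From these log2 values, limma 3.58.1 in R 4.3.3 was fitted to all 9 arrays with lmFit and eBayes, after the 115 control probe sets were left out. The 6 residual degrees of freedom were joined by 1.35 prior degrees of freedom. The difference of 4 minus 5 dpf was tested over 15502 probe sets with Benjamini-Hochberg adjustment, and a probe set was called at an adjusted p under 0.05 with a fold of at least 2. In the same fit the change from 4 to 5 dpf was set against that from 3 to 4 dpf. On simulated data the fit called 87 of 100 probe sets changed by a log2 difference of 1.5, 98 of 100 changed by 3, and 3 unchanged ones. These data had independent normal errors, with the same SD at all ages for a probe set. They do not cover correlated arrays, an SD that differs between ages, or separate handling of the 4 dpf arrays. The changed probe sets were drawn at random from all 15502, of which 6817 had a mean under 5. Recovery was not counted apart for dim and brighter probe sets.

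Symbols came from the platform's annotation, of which 10718 entries matched RefSeq genes by identifier and 84 did not, and 1 symbol was updated. A gene is represented by its probe set with the highest mean over the 9 arrays. The 38 gene lists and the comparison itself were chosen with earlier results of these data known. Any called gene with 1 symbol could be named, the 10 largest differences in each direction and up to 4 called members of each list were to be described, and 5 probe sets just outside each limit could be named. Other genes named for passing the adjusted p alone, or with large differences that missed it, were chosen after their values were seen.

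The alternatives were a fit of only the 6 arrays, quantile normalisation, median centring, setting signals under 4 to 4, leaving out probe sets averaging under 5, a replicate block, no fold limit, trended and robust moderation, an unmoderated test, 1 probe set per gene, keeping the controls, and leaving out each array.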

Additional observations from a re-analysis of the deposited data

Results flagged for a closer look

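For 16 of the called probe sets the change from 4 to 5 dpf differed from the change from 3 to 4 dpf, by a limma contrast of those changes with an adjusted p under 0.05 over all probe sets (930 of 15502, 6.0%). Both changes use the 4 dpf arrays, the arrays that stood apart at the dim end, so age and any difference in their handling cannot be told apart.

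In 7 of the 16 the mean was highest at 4 dpf. The value, second-day minus first-day change, was -2.79 for atrxl, -2.11 for gins2, -1.99 for pprc1, -1.86 for eri1 and -1.49 for smarca5, and -2.38 and -2.0 for 2 probe sets without a symbol. For sulf1 it was -0.86, with means of 5.81, 5.43 and 4.21 at 3, 4 and 5 dpf, a fall that was steeper on the second day.

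In 5 the mean was lowest at 4 dpf: stk38a at 3.60, pax9 at 3.67, runx3 at 2.90, socs1a at 1.74 and a probe set without a symbol at 1.11. The means at 3, 4 and 5 dpf were 4.60, 2.85 and 4.71 for stk38a, and 5.37, 2.76 and 3.83 for pax9. All 5 lay under 4 at 4 dpf. In the other 3 the second day continued the first at another pace. casp9 at 0.78 and 1 of the called probe sets of ptp4a3b at 1.12 rose more on the second day. hsd17b8, at 2.65, went from 10.62 to 6.80 and then to 5.63.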

How the results depend on the processing

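No called probe set changed direction, which leaving out 1 array could not bring about, as the groups of all 68 do not overlap. Most other settings leave the difference itself unchanged. Of the 68, 13 were called in every fit that left out 1 array, and 8 in those and in every other setting in which they were tested. Over all called probe sets and alternatives, 888 values stayed called and 426 did not. Signals near background, and the dim end of the 4 dpf arrays, limit what can be called.

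With signals under 4 set to 4, the calls were 12, of which 7 were higher at 4 dpf and 5 higher at 5 dpf, and 11 of the 68 remained. The second-day contrast then gave 121. With only probe sets of a mean of at least 5 over the 6 arrays at 4 and 5 dpf, there were 9 calls, 3 and 6 by direction. All 9 were among the 44 of the 68 that were tested. The second-day contrast on those probe sets gave 0 (823 at an unadjusted p under 0.05 in limma, against 2805 of all). Without the fold limit there were 1251, 385 and 866 by direction. Trended and robust moderation gave 62 higher at 5 dpf, the unmoderated test 25, and 1 probe set per gene 42 calls with 22 higher at 5 dpf and 393 in the second-day contrast. The fit of only the 6 arrays gave 55. Quantile normalisation gave 61 and moved the median over all probe sets from -0.05 to 0.02, and median centring gave 75.

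Leaving out 1 array gave 19 to 86 calls, 6 to 40 higher at 4 dpf and 13 to 49 higher at 5 dpf, and 258 to 919 in the second-day contrast. The lowest came without 4 dpf replicate 2 and the highest without 5 dpf replicate 3 for the calls. Genes past the adjusted p ran from 3 to 21 in the cell cycle list, 1 to 12 in the splicing and chromatin list, 1 to 10 in the proteasome list, 0 to 10 in the ER list, 1 to 10 in the early response list and 1 to 8 in the pancreas list.

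With only the 6 arrays these counts were 7 for the cell cycle, 5 for splicing and chromatin, 4 for the proteasome and 5 for the ER. Counting any probe set of a gene gave 6 pancreas genes. The following counts were chosen after seeing the data, as were all alternatives of the second-day contrast. With signals under 4 set to 4, the counts were 2 for the cell cycle, splicing and chromatin, and the proteasome, and 0 for the ER, early response and pancreas lists. With a mean of at least 5 over the 6 arrays at 4 and 5 dpf, they were 2 for the cell cycle, 1 for the pancreas and 0 for the others. The counts at an unadjusted p under 0.05 in limma were 43 and 45 for the cell cycle in these fits, against 49, and 13 and 11 for the pancreas, against 23. They were 25 and 23 for splicing and chromatin, 16 and 17 for the proteasome, 21 and 22 for the ER, and 25 and 26 for the early response. For the dim members the alternatives' own construction, fewer probe sets and no values under the floor, lowers the count. For the rest the cause was not tested.

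The labels give all ages replicate numbers 1 to 3. Same-numbered deviations from the age means correlated at 0.72, -0.07 and -0.03 between 4 and 5 dpf. Between 3 and 5 dpf they correlated at 0.54, 0.01 and 0.04, so the numbers 2 and 3 do not pair those ages. Instead, replicate 2 at 4 dpf correlated at 0.53 with replicate 3 at 5 dpf, and replicate 3 at 4 dpf at 0.50 with replicate 2 at 5 dpf. The same crossed pairs gave 0.46 and 0.21 between 3 and 5 dpf. The main fit pairs no arrays, and a block by the crossed pairs was not run. Between 3 and 4 dpf same-numbered deviations correlated at 0.60, 0.50 and 0.44, a pairing that enters the second-day contrast. Every differently numbered pair was below 0. As deviations sum to 0 within an age, positive same-numbered pairs make the others negative on balance, so those signs add nothing. With the number as a replicate block there were 84 calls, 35 and 49 by direction, with 64 of the 68 remaining, and 882 in the second-day contrast.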

Other observations

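Some lists outside the comparison's main groups held few members past the adjusted p. Of all genes, 3.17% passed it higher at 4 dpf and 4.66% higher at 5 dpf, and the synapse and sterol counts are near these shares. Of 30 synapse genes 1 was higher at 4 dpf, with a list median of 0.16, and of 25 genes of sterol and lipid synthesis 1 was higher at each age, with a median of 0.22. Of 19 blood vessel genes 2 were higher at 5 dpf, with a median of -0.24. Of 23 genes of complement, interferon and antigen presentation 2 were higher at 5 dpf, with a median of -0.28, and only 3 of the 23 had a mean of at least 5.

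Lists of dim genes lay on the side of 5 dpf. None of 41 Hox genes had a mean of at least 5, and 21 did not overlap and were higher at 5 dpf (19% of all genes), against 0 the other way. The adjusted p was passed by 2 of the 41, higher at 5 dpf (4.66% of all genes), and the median was -0.07. Of 27 axon guidance genes 5 were higher at 5 dpf by the adjusted p (4.66% of all genes), and 0 of the 10 with a mean of at least 5 were, where 1 had an unadjusted p under 0.05 in limma and was higher at 4 dpf. The median over all probe sets with a mean under 5 was -0.07, and 41.2% of them did not overlap and were higher at 5 dpf.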
